A study of Mus musculus with 8 samples.

Results

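The Toll-like receptor genes Tlr1, Tlr2, Tlr4, Tlr6, Tlr7, Tlr9 and Tlr13, the co-receptor genes Cd14 and Ly96 and the adaptor gene Myd88 were described in mouse neutrophils with and without the small GTPase Arf6. Members were taken by name: every probe set whose single gene symbol is one of these 10 was used, which gave 1 probe set for each of the 10 genes out of 22180 genes with such a probe set. All 10 passed the filter on dim probe sets (a log2 value above 5.45 in at least 2 arrays), and 14002 probe sets were tested in all. The cells were leukocytes that had entered air pouches after injection of lipopolysaccharide (LPS), pooled from 5 mice per array and purified by negative selection to 98% Ly6G-positive cells, per the design text. No pouch without LPS was analysed here, so every value describes cells after LPS exposure.

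The groups were the Arf6 conditional knockout (cKO, genotype flox+/+Cre+/+, 3 arrays), the flox control (flox+/+Cre-/-, 3 arrays) and the Cre control (flox-/-Cre+/+, 2 arrays). The labels used here name neither the promoter that drives Cre nor the age of the mice. The source field of each sample names another genotype than the title and the genotype label, which were followed. Arf6 itself (probe set 17275925) had a mean log2 level of 6.25 in the cKO, against 8.02 (flox control) and 7.82 (Cre control), and the cKO arrays lay below every control array. A second Arf6 probe set (17281565) overlapped between the groups, with means of 6.29 (cKO), 6.55 (flox control) and 6.33 (Cre control). Array medians ranged from 5.41 to 5.48. The neutrophil marker list was bright in every array (mean log2 level 11.7 to 12.2 over 13 genes). Of the 4 B cell markers with a probe set, Cd79a and Ms4a1 did not pass the filter on dim probe sets, and Cd79b and Pax5 did. All 11 macrophage and monocyte genes passed it (list mean log2 level 8.57 to 9.10 over the arrays). So did 8 of 9 dendritic cell and class II, 6 of 7 T and NK cell, 5 of 8 eosinophil and mast cell and 4 of 5 fibroblast genes. Sex-linked transcripts set 2 pools apart: Xist read 5.46 in flox control replicate 1 and Eif2s3y read 4.08 in cKO replicate 1, against at least 7.84 and 8.66 in the other arrays. The arrays are separate pools per the design text, so the spread between arrays is one between pools of mice. RNA of a whole pool was measured, so fewer cells of a type and less RNA per cell cannot be told apart.

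Toll-like receptors are membrane proteins that recognise conserved microbial molecules and pass the signal on through a cytoplasmic TIR domain. TLR4 binds LPS together with MD-2, the product of Ly96, after CD14 has handed over the LPS molecule. TLR2 pairs with TLR1 or TLR6 to read bacterial lipopeptides, while mouse TLR7, TLR9 and TLR13 sit in endosomes and detect single-stranded RNA, unmethylated CpG DNA and bacterial ribosomal RNA. All of these receptors signal through MyD88, which recruits IRAK kinases and leads to NF-kB activation, and TLR4 also signals from endosomes through the adaptors TRAM and TRIF. ARF6 acts in endocytic traffic and has been linked to this endosomal branch of TLR4 signalling.

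Upstream sequences are shown for Tlr2, Tlr6 and Myd88, the members with the smallest p in the cKO against the flox control. RefSeq tables (build GRCm38.p6) gave a start site for 6 of the 10 genes, with 8 start sites in all; Tlr4, Tlr7, Cd14 and Ly96 had no entry. The 250 bases before each start were searched on both strands for the kappaB consensus, the PU.1 box GAGGAA, the AP-1 site TGANTCA and a core of the interferon-stimulated response element (ISRE), searched as GAAA and GAAA separated by any 2 bases. Capitals mark the matches, and each sequence runs 5′ to 3′ toward the start site.
Tlr2, chr3:83841609-83841858, minus strand: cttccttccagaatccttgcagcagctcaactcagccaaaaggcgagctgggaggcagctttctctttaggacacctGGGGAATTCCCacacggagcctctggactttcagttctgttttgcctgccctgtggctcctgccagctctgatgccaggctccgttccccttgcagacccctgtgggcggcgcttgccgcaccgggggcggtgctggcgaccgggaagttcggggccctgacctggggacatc
Tlr6, chr5:64959167-64959416, minus strand: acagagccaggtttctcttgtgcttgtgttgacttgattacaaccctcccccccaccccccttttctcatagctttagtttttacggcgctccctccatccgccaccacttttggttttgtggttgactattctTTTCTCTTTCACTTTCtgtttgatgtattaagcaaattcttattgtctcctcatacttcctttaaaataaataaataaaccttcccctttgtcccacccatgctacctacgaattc
Myd88, chr9:119340019-119340268, minus strand: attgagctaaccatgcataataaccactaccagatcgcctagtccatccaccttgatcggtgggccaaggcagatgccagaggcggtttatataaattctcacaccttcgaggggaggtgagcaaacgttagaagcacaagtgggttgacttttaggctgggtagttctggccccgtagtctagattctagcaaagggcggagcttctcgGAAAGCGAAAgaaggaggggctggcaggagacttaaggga
The capitals in Tlr2 hold overlapping matches to the kappaB consensus, the motif that NF-kB dimers bind, the first starting 173 bases before the start. The capitals in Tlr6 hold 2 overlapping ISRE cores on the opposite strand, and those in Myd88 hold 1 ISRE core, GAAAGCGAAA, 40 bases before the start. The kappaB consensus was found in 1 of the 8 member windows and in 7.25% of 32851 windows of this length, and the ISRE core in 2 of 8 and in 2.98%. The PU.1 box was found in 3 of 8 (Tlr1, Tlr9 and Tlr13) and in 23.3%, and the AP-1 site in 1 of 8 (Tlr9) and in 6.75%. The second start sites of Tlr1 and Tlr6 held none of the 4 motifs. These matches describe letters only, and no binding was measured.

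No member passed the threshold (adjusted p under 0.05, limma with Benjamini-Hochberg adjustment) in any of the 4 comparisons: cKO against flox control, cKO against Cre control, Cre control against flox control, and cKO against the mean of both controls. Over all probe sets tested, 0.0429%, 0.0714%, 0.486% and 0.00714% passed in these comparisons. At an unadjusted p under 0.05 the members counted 2 (Tlr6 and Myd88), 1 (Tlr6), 1 (Tlr9) and 1 (Tlr6), where 8.26%, 13.5%, 14.7% and 9.52% of all probe sets did so. The median log2 fold change of the 10 members was 0.03, -0.06, -0.01 and 0.02, beside 0.01, 0.01, -0.0047 and 0.01 over all probe sets. Differences are given on the log2 scale.

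**Figure D1:**
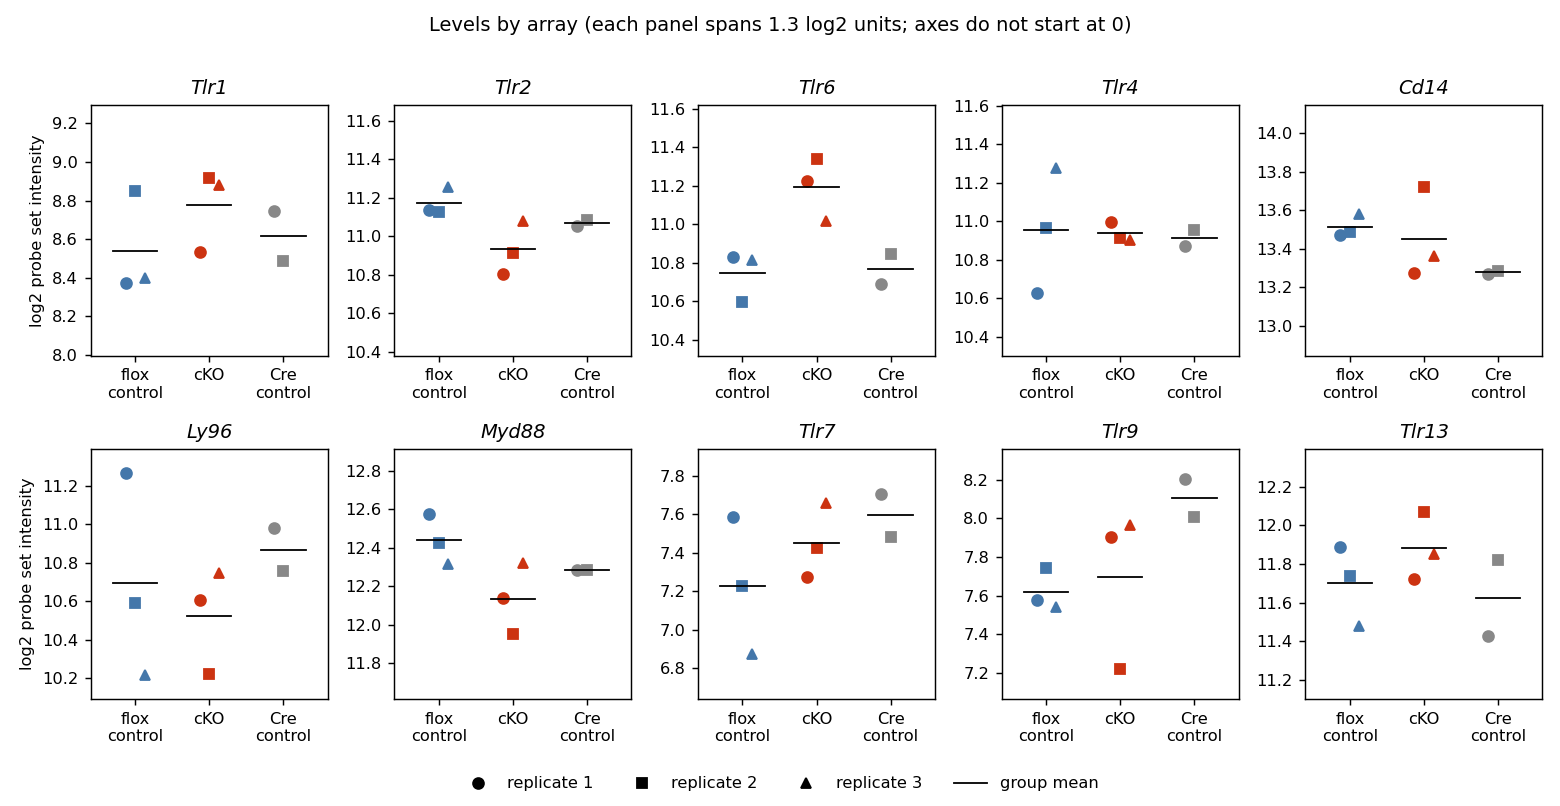
Log2 probe set intensity of each member in the 8 arrays (y axis, each panel spanning 1.3 log2 units), by genotype group (x axis); symbols mark the replicate and lines the group mean. For Tlr6 the 3 cKO arrays, from 11.02 to 11.34, lie above all 5 control arrays, from 10.60 to 10.85, while for Tlr4 the cKO arrays lie inside the range of the controls.

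The genes of the LPS receptor complex did not pass in any comparison. Tlr4 (chromosome 4, probe set 17414836), the signalling receptor for LPS, read 10.997, 10.91 and 10.90 in the cKO, 10.63, 10.96 and 11.28 in the flox control and 10.87 and 10.95 in the Cre control. The cKO values were close together (SD 0.05, n = 3) and the flox control held both the highest and the lowest array of the series (SD 0.32, n = 3). The difference was -0.02 (SE 0.16, 95% interval -0.37 to 0.33, adjusted p = 0.985) against the flox control and 0.02 (SE 0.18, interval -0.37 to 0.42, adjusted p = 0.975) against the Cre control. The intervals bound the size of a Tlr4 difference and do not show that there was none.

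Cd14 (chromosome 18, probe set 17353747), the surface protein that hands LPS to the receptor, read 13.28, 13.72 and 13.36 in the cKO, 13.47, 13.49 and 13.58 in the flox control and 13.27 and 13.29 in the Cre control. The flox control lay wholly above the Cre control, and cKO replicate 2 was the highest array. In 3 members (Cd14, Tlr2 and Myd88) the Cre control arrays lay wholly below the flox control arrays, as they did in 17.4% of all probe sets. The Cd14 differences were -0.06 (SE 0.13, adjusted p = 0.943) for the cKO against the flox control, 0.17 (SE 0.15, adjusted p = 0.685) against the Cre control and -0.23 (SE 0.15, adjusted p = 0.514) for the Cre against the flox control. The mean of Cd14 lay at percentile 99.9 of all probe sets, near the array maxima of 14.10 to 14.17.

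Ly96 (chromosome 1, probe set 17211286) encodes MD-2, which holds the lipid A part of LPS against TLR4. It varied most among the pools, over 1.04 log2 units, reading 10.61, 10.22 and 10.74 in the cKO, 11.26, 10.59 and 10.22 in the flox control and 10.98 and 10.76 in the Cre control. The highest and the lowest array both belonged to the flox control, so its spread (SD 0.53, n = 3) exceeded any difference between groups. The cKO arrays lay below both Cre control arrays (-0.34, SE 0.27, adjusted p = 0.654) and overlapped the flox control (-0.17, SE 0.24, adjusted p = 0.909). Of all probe sets, 16.0% lay wholly lower in the cKO than in the Cre control, beside 2 members, Ly96 and Tlr9.

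Among the lipopeptide receptors, Tlr6 had the largest difference between the cKO and the controls. Tlr6 (chromosome 5, probe set 17448251), a partner of TLR2 for diacylated lipopeptides, read 11.23, 11.34 and 11.02 in the cKO, 10.83, 10.60 and 10.81 in the flox control and 10.69 and 10.85 in the Cre control. Every cKO array was above every control array, where 5.93% of all probe sets lay wholly higher than the flox control and 18.5% than the Cre control. The control groups overlapped, their means 10.75 and 10.77 differing by 0.02 (SE 0.14, adjusted p = 0.965). Tlr6 was 1.36-fold higher in the cKO than in the flox control (log2 0.45, SE 0.13, 95% interval 0.16 to 0.73, adjusted p = 0.394) and 1.34-fold higher than in the Cre control (0.42, SE 0.14, interval 0.10 to 0.74, adjusted p = 0.255). Against both controls the difference was 0.44 (SE 0.12, interval 0.18 to 0.69, adjusted p = 0.343), above 97.3% of all probe sets, and it ranked 159 of 14002 by p. Of the 56 splits of 3 against 5 arrays no other separated Tlr6 as far, so the exact permutation p = 0.0179 (two-sided, not adjusted) was the smallest possible. Tlr6 was the single member whose cKO arrays lay wholly above all controls, and 2.11% of all probe sets did the same. The difference from both controls kept its sign in every alternative run, between 0.36 and 0.52, with adjusted p from 0.122 (without cKO replicate 3) to 0.964 (without Cre control replicate 1).

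Tlr1 (chromosome 5, probe set 17448245), the other partner of TLR2 and the neighbour of Tlr6 on the chromosome, did not separate in the same way. It read 8.53, 8.92 and 8.88 in the cKO, 8.37, 8.85 and 8.40 in the flox control and 8.75 and 8.49 in the Cre control. All 3 groups overlapped, and the cKO differed by 0.24 (SE 0.17, interval -0.14 to 0.61, adjusted p = 0.754) from the flox control and by 0.16 (SE 0.19, interval -0.26 to 0.58, adjusted p = 0.783) from the Cre control. Whether the Tlr6 and Tlr1 differences were unequal was not tested.

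Tlr2 (chromosome 3, probe set 17406279), the shared subunit of both lipopeptide receptors, was on the low side in the cKO. It read 10.81, 10.91 and 11.08 in the cKO, 11.14, 11.12 and 11.26 in the flox control and 11.05 and 11.08 in the Cre control. The cKO arrays lay below all flox control arrays, as did 6.31% of all probe sets, and cKO replicate 3 fell between the Cre control arrays. The difference was -0.24 (SE 0.11, interval -0.49 to 0.02, adjusted p = 0.648) against the flox control, -0.14 (SE 0.13, adjusted p = 0.716) against the Cre control and -0.19 (SE 0.10, adjusted p = 0.617) against both. The exact permutation p against both controls was 0.0357 (two-sided, not adjusted), where the smallest possible is 0.0179. Tlr2 spanned only 0.45 log2 units over the 8 arrays, or a little more than Cd14.

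**Figure D2:**
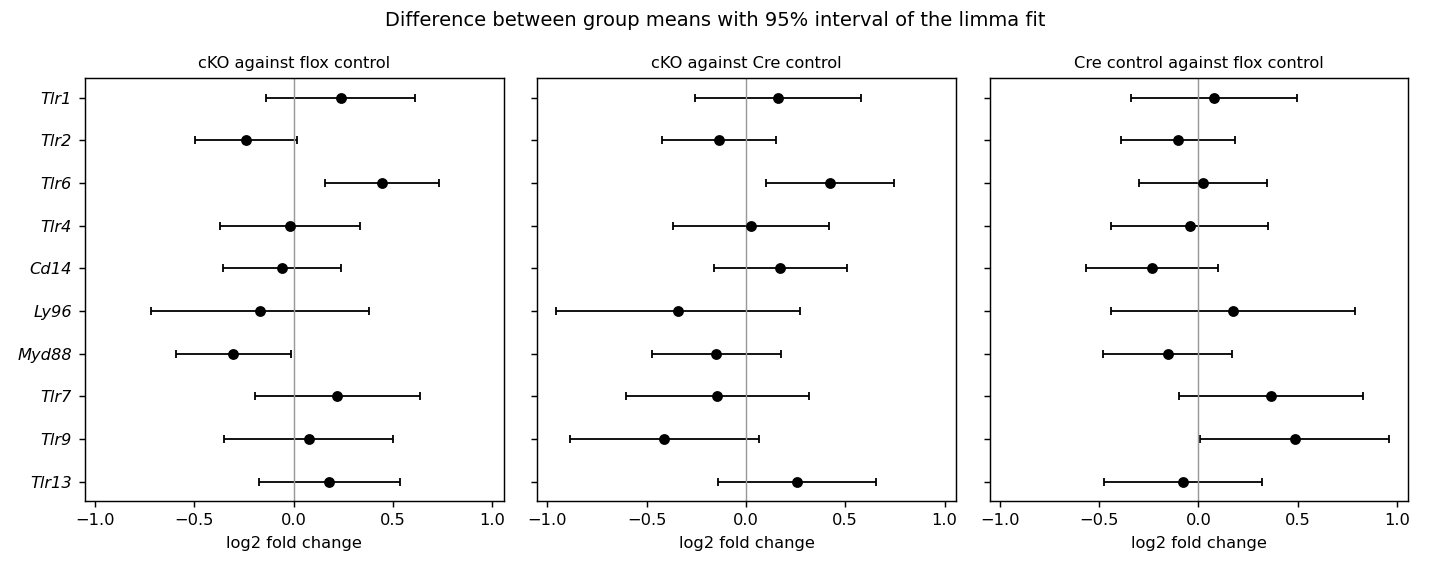
Log2 fold change (x axis) of each member in 3 comparisons, as points with the 95% interval of the limma fit. The Tlr6 intervals lie above 0 in both comparisons of the cKO, from 0.16 to 0.73 and from 0.10 to 0.74, and the Ly96 interval against the Cre control runs from -0.96 to 0.27.

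Myd88 (chromosome 9, probe set 17532137), the adaptor common to these receptors, read 12.14, 11.95 and 12.32 in the cKO, 12.58, 12.42 and 12.32 in the flox control and 12.28 and 12.28 in the Cre control. The group means followed the order flox control (12.44), Cre control (12.28) and cKO (12.14), but cKO replicate 3 read as high as flox control replicate 3, so the cKO and flox control overlapped by these arrays. The cKO was 1.23-fold lower than the flox control (-0.30, SE 0.13, interval -0.59 to -0.01, adjusted p = 0.588) and differed by -0.15 (SE 0.14, adjusted p = 0.727) from the Cre control. The Cre control lay below the flox control by a similar amount (-0.15, SE 0.14, adjusted p = 0.676). The Cre control arrays lay wholly below the flox control arrays, while the cKO overlapped both controls. Against both controls the Myd88 difference was -0.23 (SE 0.12, adjusted p = 0.585, exact permutation p = 0.107, two-sided).

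Of the endosomal receptors among the members (Tlr7, Tlr9 and Tlr13), Tlr9 differed most between the control lines, and none passed. Tlr9 (chromosome 9, probe set 17521171), the CpG DNA receptor, read 7.90, 7.22 and 7.97 in the cKO, 7.58, 7.74 and 7.54 in the flox control and 8.21 and 8.01 in the Cre control. Both Cre control arrays were above all other arrays, and the cKO spanned the flox control range (SD 0.41, n = 3), with cKO replicate 2 the lowest array. Between the controls Tlr9 was 1.40-fold higher in the Cre control (0.49, SE 0.21, interval 0.01 to 0.96, adjusted p = 0.330), and 15.3% of all probe sets lay wholly higher there. The cKO differed by 0.08 (SE 0.19, adjusted p = 0.951) from the flox control and by -0.41 (SE 0.21, interval -0.89 to 0.07, adjusted p = 0.444) from the Cre control, comparisons that share arrays with that between the controls.

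Tlr7 (chromosome X, probe set 17546109), which senses single-stranded RNA, read 7.27, 7.42 and 7.66 in the cKO, 7.59, 7.23 and 6.87 in the flox control and 7.71 and 7.48 in the Cre control. The groups overlapped, with means in the order Cre control (7.59), cKO (7.45) and flox control (7.23), and no difference between them passed. The cKO differed by 0.22 (SE 0.18, adjusted p = 0.796) from the flox control and by -0.14 (SE 0.21, adjusted p = 0.838) from the Cre control, and the Cre control by 0.36 (SE 0.21, adjusted p = 0.454) from the flox control. Tlr13 (chromosome X, probe set 17537081), which mice have and humans lack, read 11.72, 12.07 and 11.85 in the cKO, 11.89, 11.74 and 11.48 in the flox control and 11.43 and 11.82 in the Cre control. Its groups overlapped as well, and the cKO differed by 0.18 (SE 0.16, adjusted p = 0.809) and 0.26 (SE 0.18, adjusted p = 0.582) from the flox and Cre controls. Neither X-linked gene singled out the 2 pools with distinct sex-linked transcripts: flox control replicate 1 and cKO replicate 1 read 7.59 and 7.27 for Tlr7 and 11.89 and 11.72 for Tlr13, inside the range of the other 6 arrays.

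Markers of some other cell types differed in level between the groups beside these values, and none passed. T and NK cell markers (7 genes with a probe set) had a mean log2 level of 5.75 to 5.97 in the flox control, 6.11 to 6.24 in the cKO and 6.21 to 6.49 in the Cre control, and their summed linear signal was 462 to 532, 629 to 715 and 719 to 840. Dendritic cell and class II genes (9 genes) summed to 2737 to 4019, 4216 to 5095 and 4886 to 5381 in the same order. Macrophage and monocyte genes (11 genes) summed to 11555 to 16275, 10593 to 14639 and 14779 to 15163. For these the flox control range held the Cre control range and overlapped the cKO range. Ly6c2 and Fcgr1, the brightest of that list (mean log2 level 12.47 and 11.89), weigh most in its linear sum. In the T and NK list Klrb1c did not pass the filter on dim probe sets. Of its 6 tested genes, 5 lay wholly higher in the Cre than in the flox control, as 15.3% of all probe sets did. These included Ncr1, an NK cell receptor gene (mean 6.76 against 6.09), and Il7r, the brightest gene of the list (8.43 against 7.55). Cd3d went the other way and lay wholly lower (5.64 against 6.12), as 17.4% of all probe sets did. Siglech, a plasmacytoid dendritic cell marker, did not pass the filter. Of the 13 neutrophil markers, 12 read lower in the Cre than in the flox control (median -0.19), as did 50.8% of all probe sets, and none passed. Tlr7 and Tlr9 were highest on average in the Cre control. So were the mean log2 levels of the T and NK, the dendritic and class II, and the macrophage and monocyte lists. The eosinophil and mast cell list was highest on average there too, while the neutrophil, B cell and fibroblast lists were not. The part of other cells in the Tlr7 and Tlr9 values was not tested. B cell, eosinophil and mast cell, and fibroblast lists had mean log2 levels of 4.88 to 5.05, 6.14 to 6.78 and 6.01 to 7.38 over the 8 arrays.

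Of the other genes of Toll-like receptor signalling, 67 were listed, 59 had a probe set of 1 symbol and 56 were tested. None passed in any comparison. At an unadjusted p under 0.05 the counts were 7 (3 higher, 4 lower) for the cKO against the flox control, 17 (8 higher, 9 lower) against the Cre control, 11 (6 higher, 5 lower) between the controls and 11 (6 higher, 5 lower) for the cKO against both, to be read beside the shares of all probe sets given above. The median log2 fold changes of the 56 were 0.02, -0.01, -0.02 and -0.02.

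Among the other Toll-like receptors, Tlr5 and Tlr8 read higher in the cKO, as Tlr6 did. Tlr5, the flagellin receptor, read 8.93, 8.79 and 8.61 in the cKO against 8.52, 8.49 and 8.58 in the flox control and 8.26 and 8.49 in the Cre control, so that all cKO arrays were above all controls (0.33 against both, SE 0.11, adjusted p = 0.414). Tlr8, next to Tlr7 on the X chromosome, differed by 0.54 (SE 0.18, adjusted p = 0.402) with an overlap, its highest array being cKO replicate 2 at 9.48. Tlr3, the double-stranded RNA receptor that uses TRIF in place of MyD88, was highest in the Cre control: its mean was 6.85 there, 5.98 in the flox control and 6.002 in the cKO. Tlr11 and Tlr12 did not pass the filter on dim probe sets.

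Several receptor accessory genes had their largest difference between the control lines. Cd180 and Ly86, which encode the RP105 and MD-1 partners related to TLR4 and MD-2, were higher in the Cre than in the flox control by 1.24 (SE 0.29, adjusted p = 0.107) and 0.77 (SE 0.26, adjusted p = 0.209). Trem1, an amplifier of TLR signalling on neutrophils, was lower there (-0.33, SE 0.12, adjusted p = 0.251). Slc15a4, the endolysosomal transporter needed for TLR7 and TLR9 responses, had means of 7.76 in the flox control, 7.35 in the Cre control and 7.94 in the cKO, 0.58 above the Cre control (SE 0.13, adjusted p = 0.152). Lgmn, a protease that processes endosomal receptors, was 0.59 higher in the Cre than in the flox control (SE 0.20, adjusted p = 0.204), and the cKO lay between them, 0.32 above the flox control (SE 0.18) and -0.27 from the Cre control (SE 0.20). The protease gene Ctsl differed by 0.33 (SE 0.20) from the flox control and by 0.53 (SE 0.22, adjusted p = 0.347) from the Cre control.

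Among the adaptors, Tirap, the bridge between TLR2 or TLR4 and MyD88, differed by 0.0067 (SE 0.12, adjusted p = 0.993) between the cKO and flox control and by 0.44 (SE 0.13, adjusted p = 0.218) from the Cre control. Ticam2, which encodes TRAM, differed by 0.05 (SE 0.11, adjusted p = 0.933) between the cKO and both controls, and Pik3ap1, the BCAP adaptor, by -0.11 (SE 0.10, adjusted p = 0.801). Of 16 tested kinases and ubiquitin enzymes, 11 read lower in the cKO than in the flox control (median -0.17) and 8 than in the Cre control (median -0.07), where 47.6% and 48.0% of all probe sets did so. Ikbke, an inducible kinase of IRF3, read 11.07, 10.16 and 11.43 in the cKO, 11.72, 11.75 and 11.53 in the flox control and 12.01 and 11.61 in the Cre control, without an overlap (-0.85 against both, SE 0.25, adjusted p = 0.369). Irak3, a brake on IRAK signalling, also lay wholly below the controls (-0.40, SE 0.13, adjusted p = 0.389), while Ikbkg, the NEMO subunit of the IkB kinase, read higher (0.52, SE 0.17, adjusted p = 0.398) with an overlap. Of all probe sets, 2.25% lay wholly lower and 2.11% wholly higher in the cKO than in all controls.

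Of the transcription factors, Irf8 and Irf3 differed between the control lines, Irf8 by 0.88 (SE 0.21, adjusted p = 0.106) and Irf3 by -0.44 (SE 0.12, adjusted p = 0.141), Cre minus flox, and Irf7 read -0.19 (SE 0.14) in the cKO against both. Tollip, an inhibitor of IRAK1, read 8.22, 8.54 and 8.14 in the cKO, above all controls, whose highest array read 8.06 (0.38, SE 0.12, adjusted p = 0.389). Socs1, which limits cytokine and TLR signals, differed by -0.54 (SE 0.30) and the phosphatase gene Ptpn6 by -0.07 (SE 0.12). Among the other receptors that use MyD88, Il18r1 differed by -0.14 (SE 0.11), Il18rap by -0.10 (SE 0.12) and Il1r1 by -0.10 (SE 0.17) between the cKO and both controls.

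**Figure D3:**
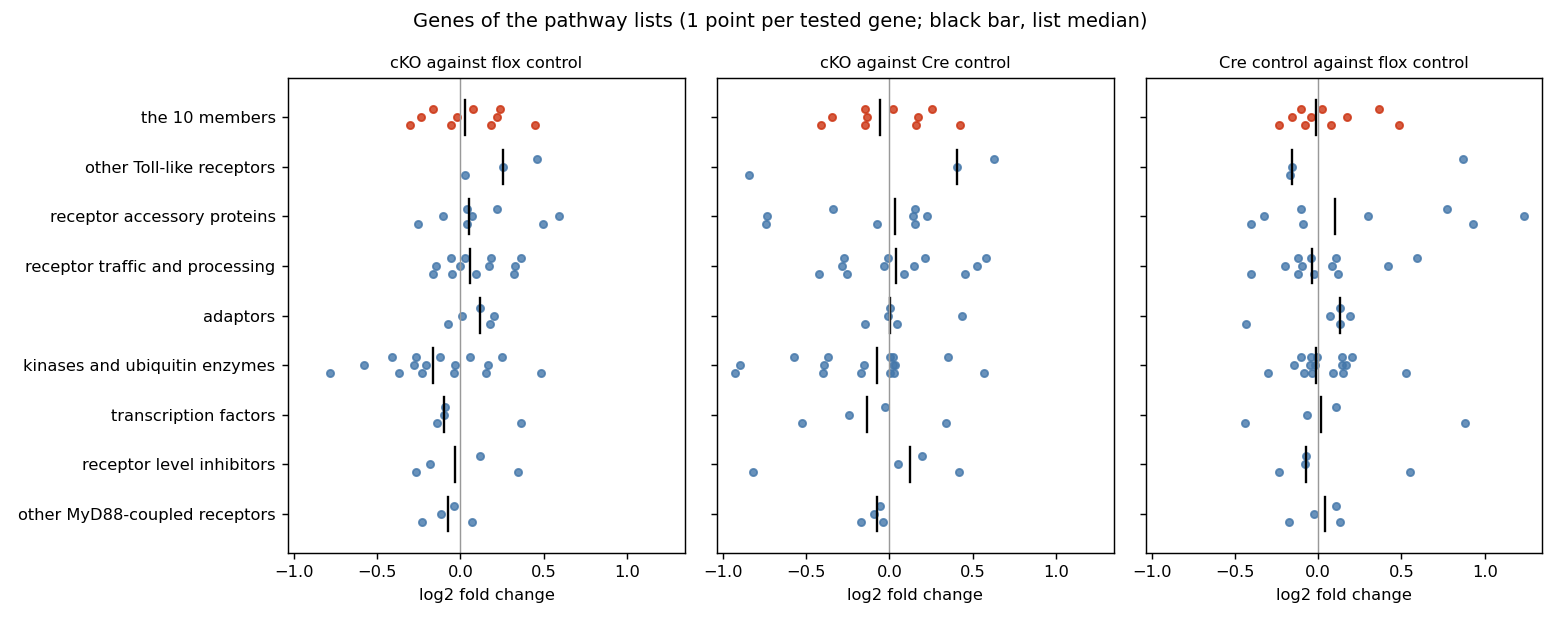
Log2 fold change (x axis) of each tested gene by list (rows) in 3 comparisons; red points are the 10 members, blue points the genes of the pathway lists and black bars list medians. Of 16 kinases and ubiquitin enzymes 11 lie left of 0 in the cKO against the flox control and 8 against the Cre control, and the members have medians of 0.03 and -0.06.

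Among the 45 pairs of members, the levels of Tlr9 and Cd14 were related across the 8 arrays by Pearson's r after adjustment. Their relation by rank was in the same direction but did not pass after adjustment. Pearson's r was -0.95 (exact permutation p = 0.00069, 0.0313 adjusted over 45 pairs) and Spearman's rho -0.90 (exact permutation p = 0.00456, adjusted 0.163). Without the 2 arrays farthest from the median of Tlr9, cKO replicate 2 and Cre control replicate 1, r was -0.90, and it was -0.92 after each group's mean was removed. Cd14 was highest and Tlr9 lowest in cKO replicate 2, and the reverse held in Cre control replicate 1. No other pair passed after adjustment; the next were Tlr4 with Tlr7 (r = -0.81, rho = -0.88, exact permutation p = 0.0176 and 0.00724, adjusted 0.263 and 0.163). Arrays of a group share a genotype, which the permutation over all 8 arrays did not take into account. No batch is recorded in the labels, so no within-batch value could be given.

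**Figure D4:**
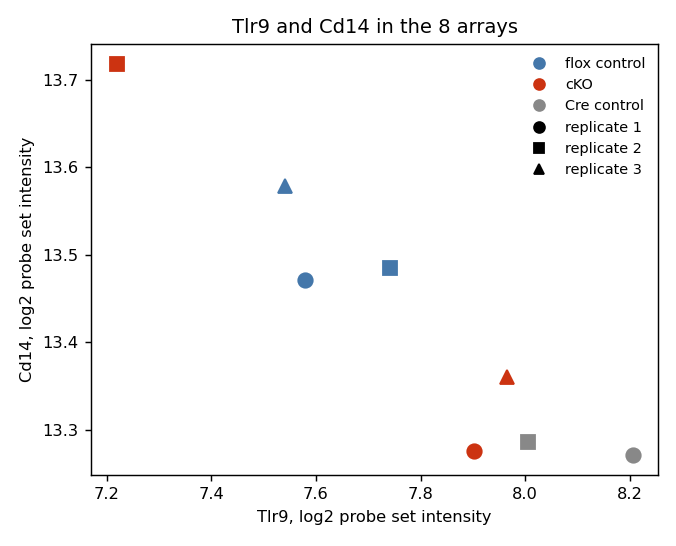
Log2 probe set intensity of Cd14 (y axis) against that of Tlr9 (x axis) in the 8 arrays; colours mark the group and symbols the replicate. Cd14 runs from 13.72 at the lowest Tlr9 level, 7.22, down to 13.27 at the highest, 8.21.

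The genes most like 3 of the members over the 8 arrays were found among 12525 tested probe sets of other genes, as a description without a test. Symbols matching patterns for predicted, Rik, microRNA and small nucleolar RNA genes were left out before the ranking. The patterns also dropped every symbol that starts with Rn, so not all tested genes were compared. For Tlr4 they were Map3k7, the kinase TAK1 (r = 0.98, rho = 0.76), Nfat5 (r = 0.98, rho = 0.76) and Btbd7 (r = 0.97, rho = 0.83). For Cd14 they were BC031181 (r = 0.98, rho = 0.93), the triglyceride enzyme Dgat1 (r = 0.98, rho = 0.93) and the actin nucleator subunit Actr3 (r = 0.98, rho = 1.00). For Myd88 they were Extl2 (r = 0.99, rho = 0.98), Adss (r = 0.99, rho = 0.98) and the ubiquitin ligase Syvn1 (r = 0.98, rho = 0.98).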

How the data were processed

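Levels are the deposited log2 probe set intensities of Affymetrix Mouse Gene 2.0 ST arrays, produced by the authors with background subtraction and RMA in Expression Console (version not stated in the design text, which is the source of these steps). No further scaling was applied. Gene symbols came from the platform annotation, brought to RefSeq symbols (GRCm38.p6) by gene identifier (23328 of 23521 probe sets with 1 symbol matched). Neither the 1814 probe sets with several symbols nor the 9137 without one were named. For listed genes with several probe sets the brightest on average was used. The 3 groups were fitted together with limma 3.58.1 in R 4.3.3 (5 residual and 4.69 prior degrees of freedom), two-sided, with Benjamini-Hochberg adjustment over 14002 probe sets. The pipeline was tested on simulated data. Named were all members, the 3 genes of each list with the smallest p over the 3 groups, Arf6, and the genes most like Tlr4, Cd14 and Myd88; a few others, named for their role or in counts, were added after their values were seen. The members and lists were chosen with earlier results of these data known. Alternatives changed the filter, scaling, variance model, weights, fitted groups and test, or left out arrays. The number of arrays limits the precision.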

Additional observations from a re-analysis of the deposited data

How the results depend on the processing

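No member passed the threshold in any of the 4 comparisons under the alternatives run with limma, with 0 to 3 members at an unadjusted p under 0.05 in any of them and a lowest adjusted p of 0.113. Of 710 recomputed member differences 674 kept their direction and side of the threshold. Many could not turn: another filter, a variance trend or a robust variance leaves a difference of group means as it is. So do fitting the compared groups alone and leaving out an array of a group not compared. Outside the comparison with both controls, the permutation test reused the reported difference and its smallest possible p was 0.1. Those rows are therefore no check of the direction or the side. The exact permutation test gave an unadjusted p under 0.05 for Tlr6 (0.44) and Tlr2 (-0.20) against the mean of the 5 control arrays, which limma did not call after adjustment. The direction turned in 34. For the cKO against the flox control these were Tlr4 with quantile normalization (0.035), and Tlr9 (-0.05), Cd14 (0.0076) and Ly96 (0.08) when both pools set apart by sex-linked transcripts were left out. In that setting Tlr4 turned against the Cre control (-0.0050) and both controls (-0.11), and Tlr1 (-0.0064) and Tlr13 (0.02) between the controls. Between the controls Tlr6 turned with median centring (-0.0098) and Tlr1 with array weights (-0.10), and Tlr4 against both controls in the permutation test (-0.0018), which weights the 5 control arrays alike. Leaving out each array in turn gave these ranges where a direction turned. Against the flox control they were -0.18 to 0.14 for Tlr4, -0.059 to 0.31 for Tlr9, -0.19 to 0.028 for Cd14 and -0.40 to 0.12 for Ly96; against the Cre control, -0.016 to 0.066 for Tlr4. Between the controls they were -0.053 to 0.23 for Tlr1, -0.21 to 0.12 for Tlr4, -0.056 to 0.10 for Tlr6, -0.27 to 0.12 for Tlr13 and -0.061 to 0.46 for Ly96. Against both controls they were -0.08 to 0.083 for Tlr4, -0.065 to 0.13 for Tlr7 (0.22 without both set-apart pools), -0.30 to 0.071 for Tlr9 and -0.077 to 0.14 for Cd14. The cause of these turns was not tested. Over all probe sets the calls ranged from 0 to 12 (6 in the reported fit) for the cKO against the flox control, 0 to 145 (10) against the Cre control, 0 to 819 (68) between the controls and 0 to 31 (1) against both, with the highest from array weights, or from leaving out cKO replicate 3 in the last, so the background shares hold for the reported fit. A Cre control array left out leaves 1, which is then assumed to vary like the other groups. No paired analysis was possible because the replicate numbers follow accession order and pair no samples.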
